A study of Mus musculus with 6 samples.

Results

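The angiopoietin and Tie receptor genes are 7 genes chosen by name for their place in one signalling system: the receptors Tek (also called Tie2) and Tie1, the receptor phosphatase Ptprb, the ligands Angpt1 and Angpt2, and the angiopoietin-like genes Angptl2 and Angptl4. All 7 were found among the 48897 genes of the deposited table, and all 7 passed the filter that left 19033 genes to test. They were measured in liver sinusoidal endothelial cells of C57BL/6 mice labelled 7 to 8 weeks old, on day 14 after a sham operation (Sham) or partial hepatectomy (PHx, the removal of part of the liver). Each library is a bulk sample of cells enriched on anti-CD146 beads, as the labels describe. Each group held 3 libraries, numbered 1, 3 and 4. The labels name no genetic change in either group and do not say whether the libraries came from separate animals, so the p-values reflect the spread among these libraries alone, part of which may be technical.

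The Tie receptors are tyrosine kinases found mainly on endothelial cells. Angpt1, made chiefly by cells around the vessel, activates Tek and steadies the vessel wall, while Angpt2, made by endothelial cells themselves, can block or activate Tek depending on its surroundings. Tie1 pairs with Tek and modulates its signal, and Ptprb, known as VE-PTP, removes phosphate from Tek. In the liver, Angpt2 of the sinusoidal endothelium is known as a regulator of vessel growth during regeneration. Angptl2 and Angptl4 share the fibrinogen-like fold of the angiopoietins but are not ligands of Tek. Angptl2 is a secreted glycoprotein of connective and fat tissue, and Angptl4 inhibits lipoprotein lipase.

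None of the 7 genes was called by edgeR's quasi-likelihood test, adjusted over all 19033 genes with a threshold of 0.05, where 0.862% of all genes were called. Of the 7 genes 3 had an unadjusted p under 0.05 (Angptl2, Angptl4 and Tek), against 12.7% of all tested genes, and DESeq2 called 2 of the 7, Angptl2 and Angptl4, against 4.18% of its 19394 genes. The endothelial genes Tek, Tie1, Ptprb and Angpt2 had negative log2 fold changes, between -0.66 and -0.32, and Angptl2 and Angptl4 had positive ones, 0.94 and 0.88. In 5 of the 7 the PHx libraries did not overlap the Sham libraries, below them for Tek, Tie1 and Angpt2 and above them for Angptl2 and Angptl4. Such separation was found in 20.5% of all tested genes (9.96% below and 10.6% above). The genes were chosen with earlier results of these data known, so that count is a description of them.

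The libraries held 38765116 to 51888481 counts. Over all tested genes 161 were called higher after PHx (0.846%) and 3 lower (0.0158%), with a median log2 fold change of 0.03. Markers of endothelial cells were abundant in every library, among them Eng, a co-receptor of the TGF-beta family, with 5614 ± 151 CPM in Sham and 3786 ± 1034 in PHx (SD, n = 3), and Clec4g, a lectin of sinusoidal endothelium, with 2995 ± 417 and 2048 ± 232 CPM. CPM are counts scaled by library size, here with trimmed-mean-of-M-values (TMM) factors. Markers of other cells were also present: 7 of 11 stellate and fibroblast markers were called higher after PHx, and their summed level ranged from 1759 to 2275 CPM in Sham and from 5228 to 6689 CPM in PHx. Summed neutrophil markers ranged from 25.4 to 289 CPM in Sham and from 24.3 to 3896 CPM in PHx, highest in PHx 4. Of 7 smooth muscle and pericyte markers 3 were called higher, with sums of 194 to 282 CPM in Sham and 568 to 922 CPM in PHx. Of 6 mesothelial markers 2 were called higher, with sums of 39.0 to 50.5 CPM in Sham and 76.5 to 162 CPM in PHx. Of 4 lymphatic endothelial markers 1 was called higher, Pdpn (adjusted p = 0.0221), and their sums were 55.2 to 80.4 CPM in Sham and 83.0 to 116 CPM in PHx. No hepatocyte, Kupffer, neutrophil or lymphocyte marker was called. None of the markers listed was at 0 in all libraries.

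Scaled for gene length, the 7 genes spanned a wide range of levels, given here as the deposited RPKM, which divides counts by gene length and library total. In Sham the order was Ptprb with 602 ± 35.5, Tie1 with 284 ± 8.74, Tek with 219 ± 12.8, Angptl2 with 17.6 ± 2.74, Angpt2 with 12.1 ± 2.98, Angptl4 with 6.35 ± 1.26 and Angpt1 with 1.17 ± 0.384 RPKM (SD, n = 3). Ptprb thus ranked 45th, Tie1 142nd and Tek 195th by mean RPKM among the 19033 tested genes in Sham, while Angpt1 ranked 11873rd. In PHx the first 4 kept their order, with 482 ± 139, 233 ± 33.4, 168 ± 36.2 and 34.7 ± 5.69 RPKM. Angptl4, with 12.0 ± 1.60 RPKM, then stood above Angpt2, with 7.79 ± 2.46 RPKM, and Angpt1 was last with 1.52 ± 0.231 RPKM. In PHx the lowest Tie1 value and the highest Tek value were both 196 RPKM, so these neighbours met within their spread, and in Sham 4 Angptl2 and Angpt2 were both at 15.6 RPKM.

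**Figure D1:**
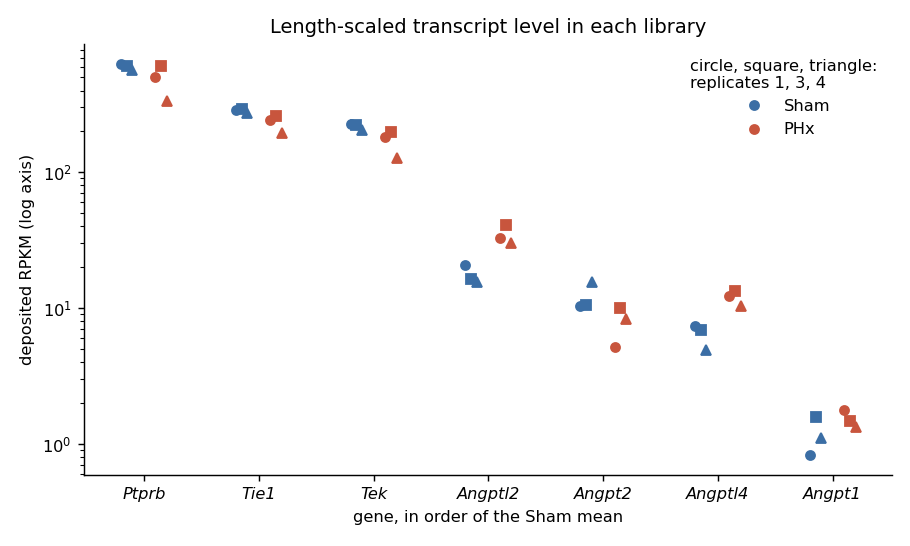
Deposited RPKM (vertical log axis) of each of the 7 genes (horizontal axis, in order of the Sham mean), 1 point per library, Sham in blue and PHx in red. The receptors and Ptprb lie far above the ligands, and Angpt1 is lowest in both groups.

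Tek encodes the angiopoietin receptor (chromosome 4, 94739289 to 94874976, plus strand, mm10), and GENCODE M21 lists no other gene over it. It had 1105, 1059 and 973 CPM in Sham 1, 3 and 4, against 801, 939.9 and 606 CPM in PHx 1, 3 and 4. All PHx libraries lay below all Sham libraries, PHx 3 only slightly and PHx 4 the most. The means were 1045 ± 67.3 and 782 ± 168 CPM, and the log2 fold change was -0.42 ± 0.18 (SE), with a 95% interval from -0.84 to -0.0014 and an edgeR adjusted p of 0.393. Without PHx 4 it was -0.26 (adjusted p = 0.646).

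Tie1 encodes the partner receptor on the same chromosome (118471191 to 118489849, minus strand), also with no overlapping gene listed. Its levels were 1139.6, 1131.5 and 1073 CPM in Sham 1, 3 and 4, against 887, 1024 and 766 CPM in PHx 1, 3 and 4. The groups did not overlap, and the order of the PHx libraries was that of Tek. From 1115 ± 36.3 to 892 ± 129 CPM, the log2 fold change was -0.32 ± 0.15 (95% interval -0.66 to 0.019, adjusted p = 0.413). The RPKM of Tie1 exceeded that of Tek in all 6 libraries, with a Tie1 to Tek ratio of 1.25, 1.30 and 1.34 in Sham 1, 3 and 4, against 1.35, 1.32 and 1.54 in PHx 1, 3 and 4. The ratio ranges of the groups overlapped, and PHx 4 had the highest ratio.

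Ptprb encodes the phosphatase that acts on Tek and on endothelial junctions (chromosome 10, 116275513 to 116389538, plus strand). The small genes Gm47625 and Gm26495 lie within it in GENCODE M21 and share none of its exon bases. It was the most abundant of the 7, with 8369.6, 7896 and 7328 CPM in Sham 1, 3 and 4 and 6144, 7949 and 4337.5 CPM in PHx 1, 3 and 4. PHx 3 lay within the Sham range and PHx 4 far below it, so the groups overlapped. The log2 fold change was -0.36 ± 0.25 (95% interval -0.93 to 0.21, adjusted p = 0.569), and it was -0.16 without PHx 4 (adjusted p = 0.888) and -0.59 without PHx 3. Relative to Tek, the RPKM of Ptprb was 2.77, 2.73 and 2.76 times as high in Sham 1, 3 and 4, against 2.81, 3.09 and 2.62 times as high in PHx 1, 3 and 4. The Sham ratios thus lay inside the range of the PHx ratios.

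**Figure D2:**
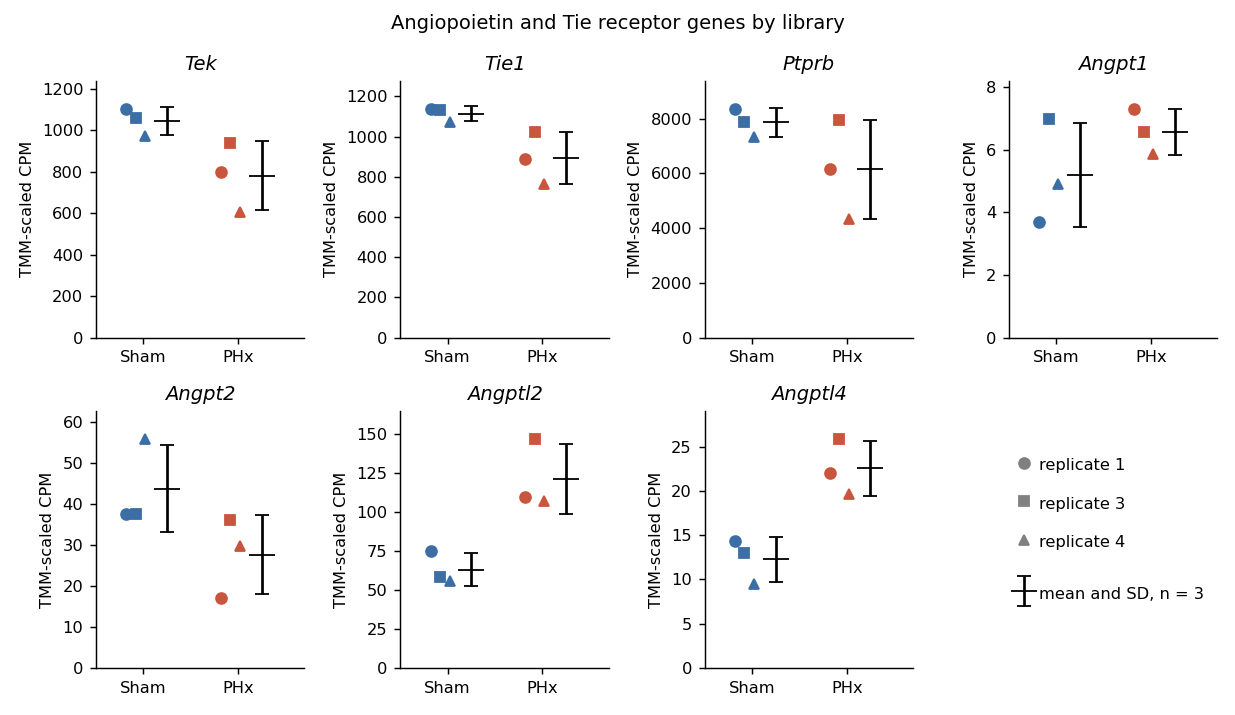
TMM-scaled CPM (vertical axis, from 0) of each gene in the 3 Sham and 3 PHx libraries, with symbols for the replicate number and bars for the mean and SD. PHx 4 (triangle) is the lowest PHx library for Tek, Tie1 and Ptprb, PHx 1 (circle) is the lowest for Angpt2, and all PHx points of Angptl2 and Angptl4 lie above the Sham points.

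Summed markers of endothelial and sinusoidal endothelial cells were also lower in the PHx libraries. The sum of the 4 lymphatic endothelial markers was higher, narrowly so, with 80.4 CPM in the highest Sham library and 83.0 CPM in the lowest PHx library. Prox1, the most abundant of the 4 by CPM (39.7 ± 9.04 CPM in Sham), was not higher (log2 fold change -0.08). Pdpn, Ccl21a and Mmrn1, the other 3, had log2 fold changes of 2.10, 0.96 and 0.86. Each had PHx libraries above all Sham libraries, against 10.6% of all tested genes. The summed level of 9 endothelial markers was 16501, 16932 and 16178 CPM in Sham 1, 3 and 4, against 11811, 14178 and 9042 CPM in PHx 1, 3 and 4, with the PHx libraries in the same order as for Tek and Tie1. Of these 9, 6 had PHx libraries below all Sham libraries, against 9.96% of all tested genes, and none was called. Mcam, the gene of the CD146 protein that the beads bind, was among the other 3, with 342 ± 53.3 CPM in Sham and 369 ± 37.3 CPM in PHx (log2 fold change 0.11 ± 0.15, adjusted p = 0.783). The 10 sinusoidal endothelial markers summed to between 27856 and 29845 CPM in Sham and between 14913 and 23851 CPM in PHx. Of the sinusoidal markers 8 had PHx libraries below all Sham libraries, against the same 9.96%, and none was called. The groups overlapped for F8 (log2 fold change -0.51) and Lyve1 (0.16). Lyve1 had 478 ± 59.3 CPM in Sham and 533 ± 227 CPM in PHx, with 787 CPM in PHx 3. Set against Pecam1, an adhesion molecule of all endothelium taken as the reference after its values were seen, Tek RPKM was 0.608, 0.586 and 0.555 of Pecam1 in Sham 1, 3 and 4. In PHx 1, 3 and 4 it was 0.510, 0.560 and 0.436 of Pecam1, so that the groups overlapped through PHx 3. For Tie1 the ratios were 0.745 to 0.762 in Sham and 0.671 to 0.741 in PHx, without overlap. The reading depended on the marker, and Pecam1 itself had a log2 fold change of -0.21. In PHx 1, 3 and 4 the log2 of CPM over the Sham mean was -0.33, -0.12 and -0.54 for Tie1. It was -0.38, -0.15 and -0.79 for Tek. The 9 summed endothelial markers stood at -0.49, -0.22 and -0.87, lower than both receptors in each PHx library. Eng and Kdr, with means of 5614 and 4797 CPM in Sham, weigh most in that sum. The median log2 fold change of the 9 markers was -0.34, between those of Tie1 (-0.32) and Tek (-0.42). In bulk samples such as these, fewer cells of a type and less RNA per cell cannot be told apart. The part of the marker shift in the receptor values was not tested.

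Angpt1, the activating ligand (chromosome 15, 42424667 to 42676977, minus strand), was scarce. It had 3.71, 6.98 and 4.92 CPM in Sham 1, 3 and 4, from 140 to 361 counts, and 7.32, 6.57 and 5.85 CPM in PHx 1, 3 and 4, from 281 to 379 counts. The groups overlapped, because Sham 3 lay within the range of the PHx libraries. The log2 fold change was 0.34 ± 0.27 (95% interval -0.30 to 0.97, adjusted p = 0.626), and it was 0.12 without Sham 1 and 0.58 without Sham 3. In GENCODE M21, 737 of the 5205 annotated exon bases of Angpt1 are shared with Gm17473, an antisense gene on the other strand. The use of strand in the counting was not given in the sources used here, so reads of Angpt1 and Gm17473 cannot be told apart over those bases.

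Angpt2, the endothelial ligand (chromosome 8, 18690263 to 18741562, minus strand), had 37.6, 37.7 and 56.0 CPM in Sham 1, 3 and 4, against 17.2, 36.1 and 29.7 CPM in PHx 1, 3 and 4. The PHx libraries were all lower, but PHx 3 lay close to the lower Sham pair, and Sham 4 stood apart as the highest. The means were 43.7 ± 10.6 and 27.7 ± 9.65 CPM, with a log2 fold change of -0.66 ± 0.30 (95% interval -1.36 to 0.041, adjusted p = 0.413). Leaving out PHx 1 moved it to -0.42, and leaving out Sham 4 moved it to -0.48. Angpt2 lies inside Mcph1, a gene of the opposite strand with which it shares no annotated exon base. Mcph1 had 8.87 ± 2.20 CPM in Sham and 11.2 ± 0.916 CPM in PHx, with a log2 fold change of 0.33 (adjusted p = 0.550).

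Angpt2 exceeded Angpt1 per length in every library. The RPKM of Angpt2 was 12.5, 6.68 and 14.1 times that of Angpt1 in Sham 1, 3 and 4, and 2.90, 6.80 and 6.28 times that of Angpt1 in PHx 1, 3 and 4. Sham 3 and PHx 3 were nearly equal, so the ratio ranges overlapped, and the lowest ratio was in PHx 1. The mean ratio was 11.1 ± 3.90 in Sham and 5.33 ± 2.12 in PHx (SD, n = 3), given with no test because it combines 2 of the chosen genes.

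Angptl2 (chromosome 2, 33215951 to 33247725, plus strand) had the smallest p-value of the 7, ranked 202nd among the 19033 genes. It had 75.0, 58.1 and 55.5 CPM in Sham 1, 3 and 4, against 109, 147 and 107 CPM in PHx 1, 3 and 4. The lowest PHx library was well above the highest Sham library, and PHx 3 was the highest of all. From 62.9 ± 10.5 to 121 ± 22.4 CPM, the fold was 1.92 and the log2 fold change 0.94 ± 0.17 (95% interval 0.55 to 1.34), and the edgeR adjusted p of 0.0616 missed the threshold. DESeq2 called it (adjusted p = 0.000511), as it did 3.75% of its 19394 genes as higher. Over the 16 alternatives the adjusted p ranged from 0.000511 to 0.324, and the log2 fold change from 0.77 to 1.06. Angptl2 lies inside Ralgps1 on the opposite strand, with no shared exon base, and Ralgps1 averaged 6.42 ± 1.06 CPM in Sham against 6.27 ± 1.67 CPM after PHx.

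Angptl4 (chromosome 17, 33774900 to 33781575, minus strand), with no overlapping gene in GENCODE M21, had 14.3, 13.0 and 9.47 CPM in Sham 1, 3 and 4, against 22.0, 25.9 and 19.7 CPM in PHx 1, 3 and 4. As with Angptl2, the groups did not overlap, PHx 3 was highest and Sham 4 lowest. The means of 12.3 ± 2.50 and 22.5 ± 3.13 CPM gave a fold of 1.84 and a log2 fold change of 0.88 ± 0.19 (95% interval 0.43 to 1.32), with an edgeR adjusted p of 0.102. DESeq2 called it as well (adjusted p = 0.00625), and over the alternatives the adjusted p ranged from 0.00625 to 0.386.

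Stellate and fibroblast markers were higher in the same libraries as both angiopoietin-like genes. Dcn, a matrix proteoglycan of these cells, averaged 670 ± 134 CPM in Sham against 1468 ± 388 CPM after PHx (log2 fold change 1.13, adjusted p = 0.0826), and Col3a1, a collagen chain, rose from 229 ± 19.9 to 1306 ± 239 CPM (adjusted p = 0.00558). Set against Dcn, also chosen after its values were seen, Angptl2 RPKM was 0.0548, 0.0543 and 0.0599 of Dcn in Sham 1, 3 and 4 and 0.0484, 0.0758 and 0.0335 of Dcn in PHx 1, 3 and 4. The groups overlapped in that ratio, whereas the ratio of Angptl2 to Pecam1 was 0.0424 to 0.0552 in Sham and 0.0931 to 0.117 in PHx, without overlap. For Angptl4 the ratio to Dcn was 0.0189 to 0.0225 in Sham and 0.0114 to 0.0248 in PHx. The overlap depended on the marker. Over the summed RPKM of all 11 stellate and fibroblast markers, Angptl2 stood at 0.0291 to 0.0310 in Sham and 0.0163 to 0.0253 in PHx, with PHx below Sham. Angptl4 stood at 0.00978 to 0.0121 of that sum in Sham and 0.00558 to 0.00828 in PHx, also below. Over Col3a1 the Angptl2 ratio was 0.350 to 0.528 in Sham and 0.118 to 0.167 in PHx. The part of these markers in the Angptl2 and Angptl4 values was not tested.

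**Figure D3:**
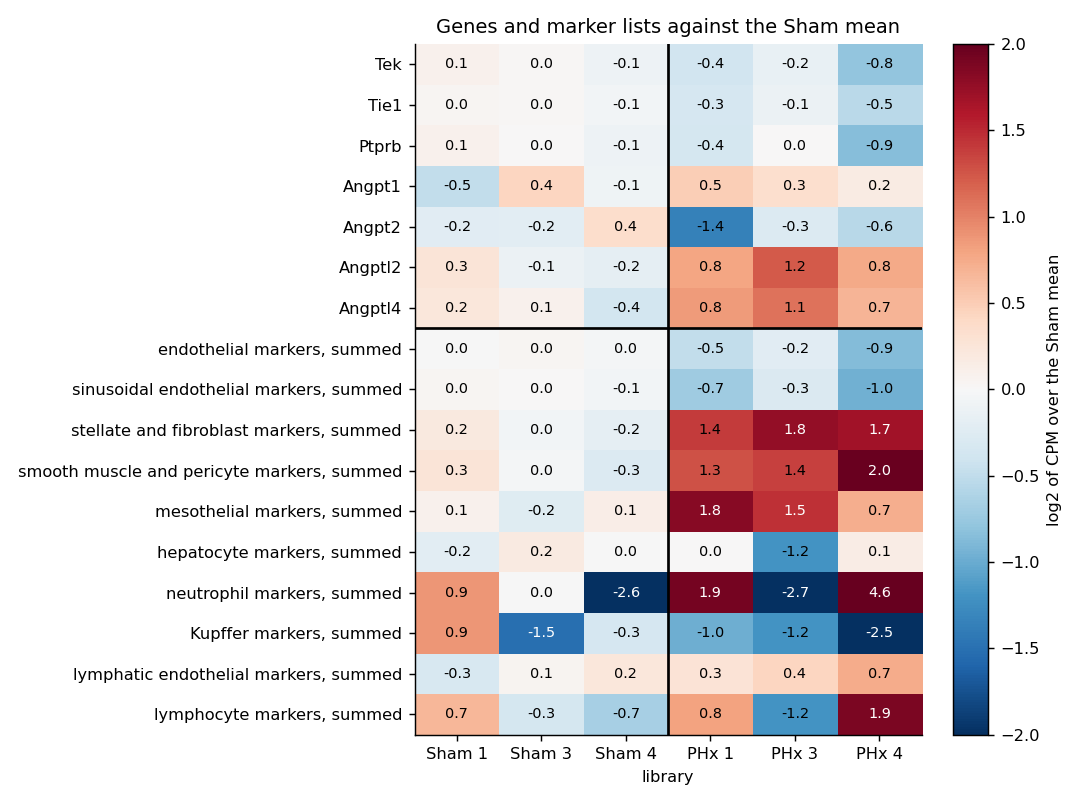
Log2 of the CPM in each library (columns) over the Sham mean, for the 7 genes (upper rows) and the summed CPM of each marker list (lower rows); red is higher and blue lower, with colours ending at -2 and 2. Tek, Tie1, Ptprb and the endothelial and sinusoidal endothelial sums are lowest in PHx 4. In that library the neutrophil (4.6), smooth muscle and pericyte (2.0), lymphocyte (1.9) and lymphatic endothelial (0.7) sums are highest. Angptl2, Angptl4 and the stellate sum are higher in every PHx library.

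Promoter sequence is shown for Angptl2, the gene with the smallest p-value of the 7, from the RefSeq table of GRCm38.p6. That table held 3 of the 7 genes, Tek, Tie1 and Angptl2. Its stretch for Angptl2 is the 250 bases before its listed start of transcription, chr2:33215711-33215960 (plus strand), and the last 10 of them lie inside the gene by the coordinates above, which begin at an earlier start. The other 240 are printed, 5′ to 3′ (chr2:33215711-33215950), with every GGAA or its reverse complement TTCC, the core of sites for ETS factors, in capitals. GENCODE M21 annotates no exon base in them.
Angptl2: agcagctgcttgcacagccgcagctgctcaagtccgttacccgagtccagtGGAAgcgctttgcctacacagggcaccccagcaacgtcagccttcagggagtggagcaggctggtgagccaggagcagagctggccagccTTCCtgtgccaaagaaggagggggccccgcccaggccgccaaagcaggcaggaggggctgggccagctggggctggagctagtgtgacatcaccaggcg
The Angptl2 stretch holds 2 matches, both among the printed bases, and 76.8% of 32851 promoter stretches of this length hold at least 2. The Tek stretch, of which 203 bases lie inside the gene as RefSeq gives it and which is not printed, also holds 2. The Tie1 stretch, which overlaps exon sequence of Tie1 in GENCODE and is not printed, holds 7 matches, and 3.82% of the stretches hold at least 7. The letters GTAAACA, bound by FOXO factors, and TGANTCA, bound by AP-1, were searched on both strands and were not in any of the 3 stretches. Over all stretches 3.17% hold the FOXO letters and 6.75% the AP-1 letters. These matches describe letters in a window and say nothing of binding.

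The rest of the pathway was read from 63 listed genes, of which 61 were tested. Of these 61, 1 was called higher, none was called lower and 60 did not pass, beside 0.846% called higher and 0.0158% called lower over all genes. An unadjusted p under 0.05 was found for 14 of the 61, against 12.7% of all tested genes. That share also stands beside the counts of unadjusted p given for each list below. The median log2 fold change of the 61 was 0.07, against 0.03 for all tested genes. DESeq2 called 7 of them, 5 higher and 2 lower, against 3.75% and 0.433% of its genes.

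The called gene was Itgav, the integrin alpha V chain of matrix receptors that can also bind angiopoietins. It rose from 35.0 ± 1.59 to 65.0 ± 13.1 CPM, with 60.1, 55.2 and 79.8 CPM in PHx 1, 3 and 4, all above Sham. The log2 fold change was 0.89 ± 0.15, with an edgeR adjusted p of 0.0491. The call was lost when Sham 1, Sham 3, Sham 4, PHx 1 or PHx 3 was left out, with adjusted p-values of 0.198, 0.248, 0.257, 0.0962 and 0.0539. It was kept without PHx 4. The other 6 genes for receptor shedding and integrins, among them Mmp14 and Adam17, proteases known to release parts of Tek or Tie1, did not pass, and the median of the list of 7 was 0.13.

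None of 16 adaptors and effectors that carry the Tek signal passed in edgeR, 1 had an unadjusted p under 0.05, DESeq2 called none, and their median was 0.08. The 1 was Pik3r1, which was higher after PHx (log2 fold change 0.27 ± 0.10, edgeR adjusted p = 0.340). Of the 16, 3 had PHx libraries above all Sham libraries and 1 below, against 10.6% and 9.96% of all tested genes. Akt1, the kinase that carries the survival signal of Tek, averaged 302 ± 4.73 CPM in Sham against 256 ± 19.4 CPM after PHx, with PHx below Sham in all libraries (log2 fold change -0.24 ± 0.11, adjusted p = 0.405). Crk, an adaptor, stood at 285 ± 3.68 and 304 ± 26.6 CPM (log2 fold change 0.10 ± 0.11).

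None of 11 genes that regulate Angpt2 or belong to the FOXO1 axis passed in edgeR, with a median of 0.02, 2 at an unadjusted p under 0.05 and 1 called by DESeq2. Those 2, Hif1a and Foxc2, were both higher after PHx (log2 fold changes 0.36 ± 0.13 and 1.23 ± 0.38). Of the 11, 3 had PHx libraries above all Sham libraries and 0 below, against 10.6% and 9.96% of all tested genes. Epas1, the hypoxia factor HIF-2 alpha, averaged 1600.4 ± 74.2 CPM in Sham against 1333 ± 198 CPM after PHx (log2 fold change -0.26 ± 0.15, adjusted p = 0.509, and -0.40 without PHx 3). Ets1, a member of the ETS family, stood at 1131 ± 118 and 1144 ± 136 CPM, with a log2 fold change of 0.02 ± 0.15 whose sign turned with upper-quartile scaling, at -0.020.

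Of 9 partners of Ptprb and junction genes none passed in edgeR, and the median was -0.06. Of these 9, 4 had PHx libraries below all Sham libraries (9.96% of all tested genes) and 3 had an unadjusted p under 0.05 (12.7%). Kdr, the main VEGF receptor, averaged 4797 ± 40.5 CPM in Sham against 2923 ± 872 CPM after PHx (log2 fold change -0.71 ± 0.23, adjusted p = 0.276), and was called by DESeq2 (adjusted p = 0.0382). Cdh5, the junction cadherin that Ptprb binds, stood at 2043 ± 84.5 and 1617 ± 343 CPM (log2 fold change -0.34 ± 0.18, adjusted p = 0.488). Without PHx 4 its log2 fold change was -0.19, and without PHx 3 it was -0.51.

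Of 12 tested genes of the lipase and PPAR axis around Angptl4 none passed in edgeR, 4 had an unadjusted p under 0.05, and the median was -0.15. Of the 4, Lpl, Lipg and Pparg were higher after PHx (log2 fold changes 1.09, 1.55 and 0.81) and Gpihbp1 was lower. For Lipg the groups overlapped. DESeq2 called Lpl higher and Gpihbp1 lower. Gpihbp1, which holds lipoprotein lipase on the capillary wall, averaged 645 ± 62.8 CPM in Sham against 424 ± 88.9 CPM after PHx, without overlap (log2 fold change -0.61 ± 0.17, adjusted p = 0.213, and 0.04999 by DESeq2, just under the threshold). Pdk4, a target of PPAR factors as Angptl4 is, stood at 178 ± 37.5 and 159 ± 57.8 CPM (log2 fold change -0.17 ± 0.30), and the sign turned without PHx 1, at 0.085. Of 6 other tested ligands of the family none passed in edgeR, with 3 at an unadjusted p under 0.05 and 2 called by DESeq2. The most abundant of them per length was Angptl6, at 60.4 ± 9.55 and 83.0 ± 12.4 CPM (log2 fold change 0.46 ± 0.16, adjusted p = 0.301).

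**Figure D4:**
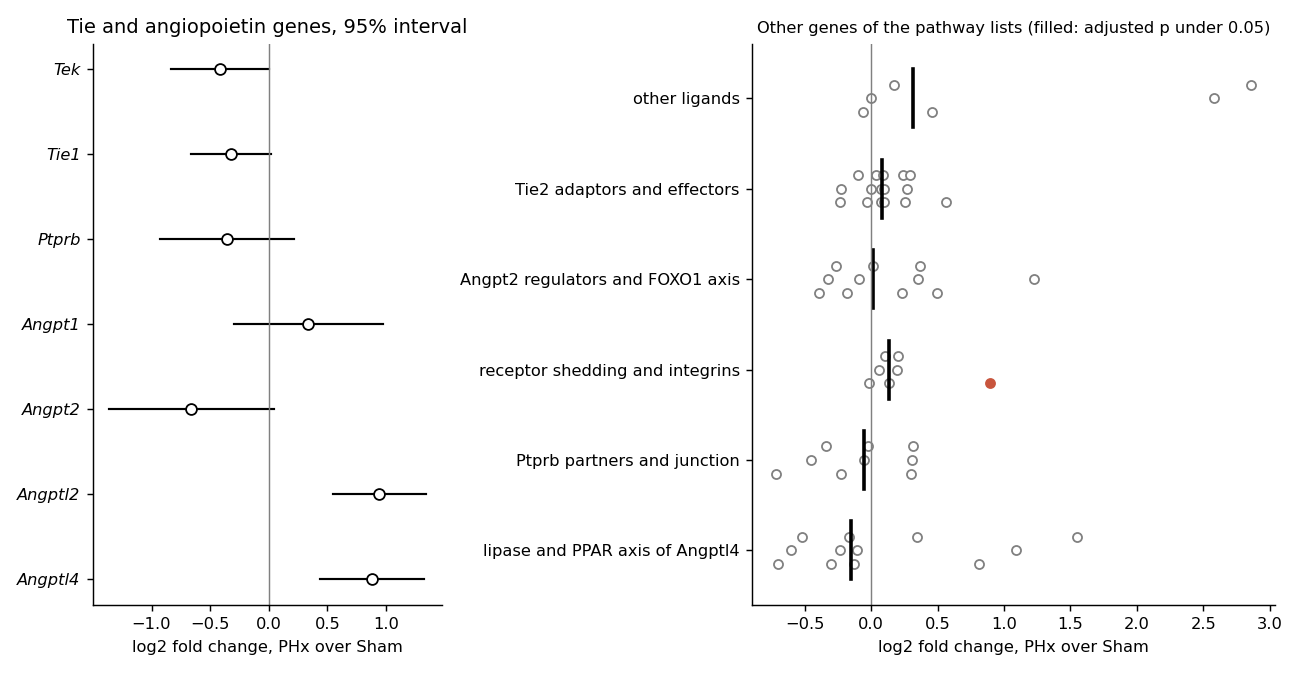
Log2 fold change of PHx over Sham (horizontal axes): left, the 7 genes with 95% intervals; right, the tested genes of the pathway lists, with a bar at each list's median and a filled point where the adjusted p was under 0.05. The intervals of Angptl2 and Angptl4 lie wholly above 0, that of Tek ends at -0.0014, and Itgav is the filled point.

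The genes most like each of the 7 were taken as those with the highest Pearson correlation of log2 CPM over the 6 libraries among 11037 genes with at least 5 CPM on average. With 6 libraries that share the group difference, such values are high for many genes: 305 genes exceeded 0.95 for Tek, 317 for Tie1, 190 for Ptprb, 44 for Angptl4, 39 for Angptl2, 38 for Angpt2 and 12 for Angpt1. For Tek the 3 nearest were Myo7a, Stoml1 and Pcdhgb2 (correlations of 0.998, 0.998 and 0.995). For Tie1 they were Rpn2, the VEGF receptor Flt1 and again Myo7a (0.999, 0.997 and 0.997), and for Ptprb they were Snap29, Amotl1 and the thrombin receptor F2r (0.997, 0.996 and 0.995). Angpt2 was nearest to Nsmce2, the Notch ligand Dll4 and Ubqln1 (0.996, 0.983 and 0.980). Angptl2 was nearest to Flnc, Gpr153 and Mrvi1 (0.997, 0.992 and 0.991), and Angptl4 to C1qtnf7 and the collagen chains Col4a1 and Col24a1 (0.991, 0.985 and 0.983). Angpt1 was nearest to Ankrd13b, Ppil4 and Slc35a5 (0.995, 0.993 and 0.990). The values are descriptions over 6 libraries and are given without a test.

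**Figure D5:**
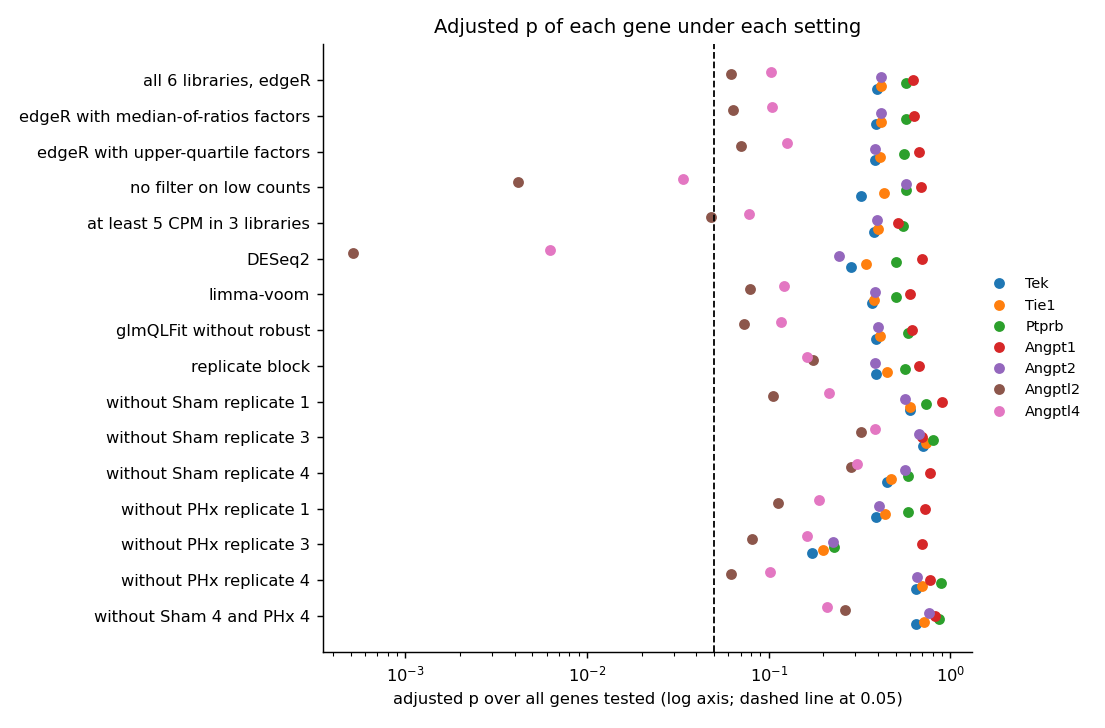
Adjusted p over all genes tested (horizontal log axis, dashed line at 0.05) of each of the 7 genes under each setting of the analysis (vertical axis). Points left of the line are Angptl2 with no filter on low counts, with at least 5 CPM in 3 libraries and with DESeq2, and Angptl4 with no filter and with DESeq2; Tek, Tie1, Ptprb, Angpt1 and Angpt2 stay to the right of it in all settings drawn.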

How the data were processed

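RNA of 6 libraries was analysed, 3 Sham and 3 PHx, grouped by the titles in the labels. The deposited table gave whole-number counts and RPKM per gene and library. Per the submitters' processing notes, bcl2fastq, TopHat2 2.0.13 and the build mm10 (GRCm38) were used; the counting program, annotation and strand setting are not given in the sources used here. The deposited RPKM equalled count over gene length and summed counts for 100% of values above 0 (relative tolerance 1e-06); the deposited gene length served only for that check. 27 names turned into dates were restored through Entrez numbers. The smallest chi-square per degree of freedom between libraries was 49.9, so none was a copy.

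Counts went into edgeR 4.0.16 (R 4.3.3) with filterByExpr, TMM scaling and robust quasi-likelihood F-tests on a model of group alone, with Benjamini-Hochberg adjustment over 19033 genes, called under 0.05. The SE is the absolute log2 fold change over the square root of F, and 95% intervals use the test's degrees of freedom. Correlations used log2 CPM with a prior count of 2. Alternatives were other scaling, filters, DESeq2 1.42.0, limma-voom (limma 3.58.1), non-robust moderation, a stricter threshold of 0.01, the replicate number as a block, and leaving out libraries. On simulated counts for the same 19033 genes the model recovered 26% of 100 genes changed by a log2 size of 1 and 68% of 100 changed by 2, and 13 of 107 calls were false.

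The members and gene lists were chosen with earlier results of these data known. Named are the 7 genes, every called gene of a pathway list or otherwise the 2 with the highest mean RPKM, some of the 2 most abundant markers per list, and the 3 nearest patterns. Mmp14, Adam17, Mcam, Pdpn, Mmrn1, Lyve1, F8, Hif1a, Pik3r1, Lipg, Pparg and the reference gene Pecam1 were added after their values were seen. So were Foxc2, Lpl and the other genes first described under Other observations. Plin2 of the pathway list was not matched to a name, and Angpt4 did not pass the filter. Another gene that the rule names is not reported here.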

Additional observations from a re-analysis of the deposited data

How the results depend on the processing

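Each of the 7 genes kept the sign of its log2 fold change in all 16 alternatives. Tek, Tie1, Ptprb, Angpt1 and Angpt2 passed in none of them. Angptl2 passed with no filter on low counts (0.92, adjusted p = 0.00416), with at least 5 CPM in 3 libraries (0.98, adjusted p = 0.0478) and with DESeq2 (0.93, adjusted p = 0.000511), and Angptl4 with no filter (0.85, adjusted p = 0.0339) and DESeq2 (0.87, adjusted p = 0.00625). The cause was not tested. Fits that each left out 1 library gave -0.58 to -0.26 for Tek, -0.44 to -0.22 for Tie1, -0.59 to -0.16 for Ptprb, 0.12 to 0.58 for Angpt1, -0.91 to -0.42 for Angpt2, 0.77 to 1.06 for Angptl2 and 0.69 to 0.98 for Angptl4. Over all genes, higher and lower calls were 359 and 30 with no filter, 727 and 84 with DESeq2, 94 and 1 with limma-voom, 16 and 1 at 0.01, and 24 and 1 without Sham 4 and PHx 4, against 161 and 3. Leaving out each library gave 0 to 160 and 0 to 9; the 0 and 0 came without Sham 4, where 2241 genes had an unadjusted p under 0.05. Of the pathway genes 2 were called higher with no filter, 5 higher and 2 lower with DESeq2, 0 with limma-voom, without robust moderation, at 0.01, and without Sham 4 and PHx 4, and 0 to 2 on leaving out each library. With a block for the replicate number there were 14 higher and 1 lower calls, and 0 pathway genes were called (Itgav edgeR adjusted p = 0.169). The labels do not say that the number pairs libraries, so the main model leaves it out. Deviations of libraries with the same number from their group means had correlations of -0.090, -0.23 and 0.027. With 3 libraries per group these cannot show whether the number is a pairing. Genes near 0 changed sign: Ets1 was at -0.020 with upper-quartile factors, -0.014 with no filter, -0.14 without Sham 4 and PHx 4, and -0.082 to 0.079 on leaving out each library, where Pdk4 was at -0.43 to 0.085. Angpt1 rested on 140 to 379 counts per library, the fewest of the 7.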

Other observations

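Of 6 other tested ligands of the family and of the Tie receptors, 2 had all PHx libraries above all Sham libraries, against 10.6% of all tested genes. These 2, Svep1 and Angptl7, and the untested Angpt4 were scarce in Sham and are named here after their values were seen. The groups overlapped for Angptl6, described above, and for Angptl1 and Angptl8, with log2 fold changes of -0.06 and -0.0010. Svep1, a large matrix protein known to bind angiopoietins, had 1.35 ± 0.256 CPM in Sham and 9.83 ± 7.79 CPM in PHx, with 18.8 CPM in PHx 4 and 6.05 and 4.65 CPM in PHx 1 and 3 (log2 fold change 2.86 ± 0.57, edgeR adjusted p = 0.0856, DESeq2 adjusted p = 8.50e-07). Angptl7, a secreted angiopoietin-like protein, had 0.891 ± 0.378 CPM in Sham and 5.36 ± 2.31 CPM in PHx (log2 fold change 2.58 ± 0.47, edgeR adjusted p = 0.0630, DESeq2 adjusted p = 1.43e-06). Angpt4, the remaining angiopoietin, had 1, 2 and 0 counts in Sham 1, 3 and 4 and 8, 21 and 16 counts in PHx 1, 3 and 4, and was too scarce to be tested.

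Among the genes around lipoprotein lipase, Lpl itself, the enzyme that Angptl4 inhibits, had 25.4, 11.3 and 17.5 CPM in Sham 1, 3 and 4 and 32.5, 36.3 and 46.8 CPM in PHx 1, 3 and 4, without overlap. Its log2 fold change was 1.09 ± 0.30, with an adjusted p of 0.206 in edgeR and 0.00954 in DESeq2. Foxc2, a forkhead factor known to act on the Angpt2 promoter, had a log2 fold change of 1.23 ± 0.38 (edgeR adjusted p = 0.247, DESeq2 adjusted p = 0.0452).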
